A study of Mus musculus with 4 samples.

Results

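Kelch-like genes encode proteins with a BTB domain, a BACK domain and a run of Kelch repeats. The 10 genes described here (Klhl2, Klhl21, Klhl24, Klhl30, Klhl31, Klhl33, Klhl34, Klhl38, Klhl40 and Klhl41) were taken by symbol from 55401 genes counted in bulk poly(A) RNA of mouse semimembranosus, a hamstring muscle of the thigh. They were chosen by name with earlier results of these libraries known, and the values that entered that choice are not recorded, so every value of the diosmin contrast counts as used in the choice. The contrast is therefore given below as a description of these genes and not as an independent test of them. All 10 genes passed the filter on low counts, among 13533 genes that did.

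All 4 libraries came from C57BL/6 mice aged 8 weeks whose left external iliac vein had been tied over a 30-gauge needle, a model of iliac vein stenosis (IVS). The 2 IVS libraries came from mice given saline by gavage each day. The 2 IVS_diosmin libraries came from mice given diosmin, a plant flavonoid used for venous disease, at 40 mg per kg per day. No unoperated mouse was among them, the labels do not say whether animals were pooled or which muscle belonged to which animal, and the p-values speak only for the spread among these 4 libraries, part of which can be technical.

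In most Kelch-like proteins the BTB domain binds the scaffold cullin 3 (Cul3) and the Kelch repeats hold a substrate, so that the ubiquitin ligase built on Cul3 and the ring protein Rbx1 can mark that substrate. Several members of skeletal muscle also protect their partners. Klhl40 and Klhl41 stabilise proteins of the thin filament, among them nebulin, and loss of either causes nemaline myopathy, a muscle disease with rod-like bodies in the fibres. Klhl31 directs the turnover of filamin C, a protein that ties actin to the Z-disc.

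Gene counts ran from 13056650 to 15324354 per library. Skeletal muscle RNA was abundant, with the 7 fast fibre markers at summed levels of 85462 to 95869 CPM in every library. CPM is the count of a gene relative to library size, here adjusted by TMM. These markers do not tell which muscle was taken. Of the 7, 1 was called higher with diosmin and 0 lower. The marker called was Myh1, at 661 and 472 CPM in IVS and 1493 and 1063 CPM with diosmin (edgeR adjusted p = 0.0261). Heart muscle markers summed to 2.40 to 16.3 CPM, with Nppb at 0, and satellite cell markers to 3.82 to 7.79 CPM. Other features moved with the groups. The 7 slow fibre markers summed to 39.7 and 40.5 CPM in IVS and to 3403 and 1303 CPM with diosmin (6 of 7 called higher). The 5 endothelial markers summed to 326 and 336 CPM in IVS and 172 and 161 CPM with diosmin (3 of 5 called lower). Nuclear rRNA genes took 3.80% and 4.14% of gene counts in IVS and 0.936% and 1.16% with diosmin, and the nuclear RNA Rn7sk was at 33.5 and 34.6 CPM against 5.97 and 11.9 CPM. The part of these differences in the results below was not tested. In bulk tissue, fewer cells of a type and less RNA per cell cannot be told apart.

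Of the 10 genes, 1 was called with diosmin, Klhl2, which was lower (edgeR quasi-likelihood test, adjusted p under 0.05 over all tested genes). Over all tested genes 400 were called, which is 2.96%, and 241 were called lower, which is 1.78%. The other 9 had adjusted p from 0.0737 to 0.957. For Klhl21, Klhl31, Klhl34 and Klhl41 both diosmin libraries lay above both IVS libraries, as they did for 23.4% of all tested genes. Klhl34 passed the filter on low counts only through its diosmin libraries, so its place among these genes was largely set by the filter. For Klhl2 and Klhl40 both lay below, as for 24.1% of all tested genes. The groups overlapped for Klhl24, Klhl30, Klhl33 and Klhl38. The median log2 fold change of the 10 genes was 0.14, beside 0.01 over all tested genes. An unadjusted p under 0.05 by edgeR was found for 5 of the 10 genes, beside 16.8% of all tested genes. No statement follows from these shares, because the contrast was in view when the genes were chosen.

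**Figure D1:**
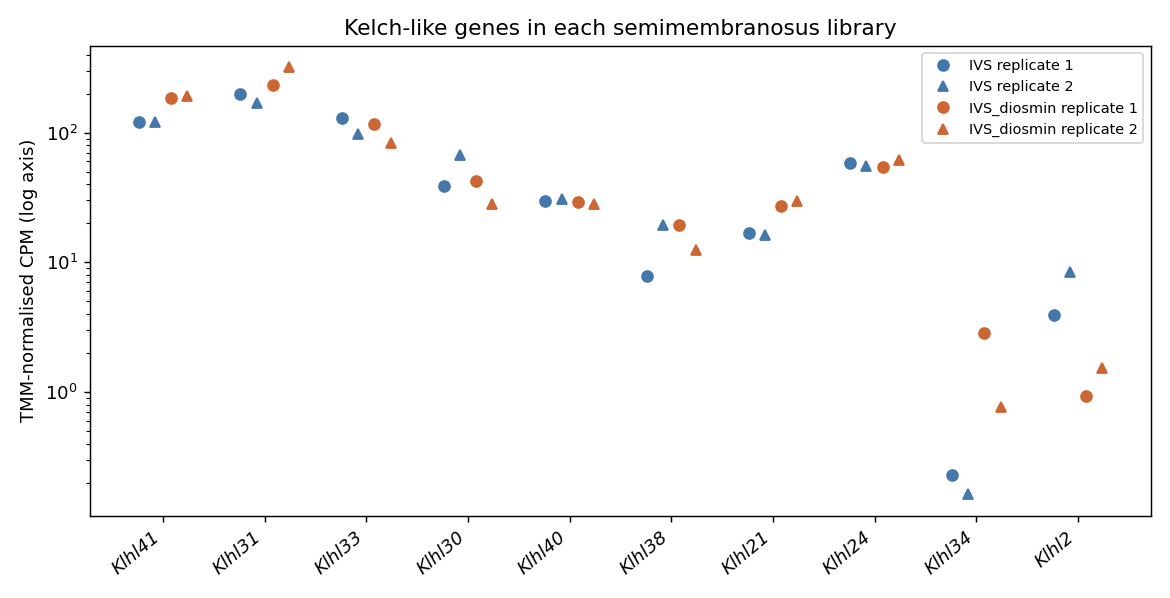
Level of each Kelch-like gene in the 4 libraries, as TMM-normalised CPM on a log axis, with 1 point per library (circles replicate 1, triangles replicate 2). The diosmin points of Klhl41 sit at 186 and 192 CPM, above the IVS points at 119.8 and 120.3 CPM, while the 4 points of Klhl40 lie between 28.2 and 30.9 CPM.

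The promoter windows of the members differed in base composition and in short motifs. RefSeq windows on GRCm38.p6, from 250 bases before a gene's start to 50 bases after it, matched 7 of the 10 genes with 8 windows. Windows of 4 genes are printed 5′ to 3′: Klhl40 and Klhl41 as the thin filament pair, Klhl33 as the other gene with a MEF2 box, and Klhl2 as the gene called. Capitals mark E-boxes (CANNTG, the letters that myogenic basic helix-loop-helix factors recognise) and MEF2 boxes (the site of a muscle and heart factor family), searched on both strands.
Klhl41, chr2:69669870-69670169, plus strand: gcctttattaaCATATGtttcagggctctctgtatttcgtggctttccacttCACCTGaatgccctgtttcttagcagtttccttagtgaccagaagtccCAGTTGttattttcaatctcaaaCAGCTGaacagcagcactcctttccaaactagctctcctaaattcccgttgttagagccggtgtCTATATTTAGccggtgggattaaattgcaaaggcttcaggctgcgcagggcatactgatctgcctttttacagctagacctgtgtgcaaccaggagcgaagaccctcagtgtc
Klhl40, chr9:121777357-121777656, plus strand: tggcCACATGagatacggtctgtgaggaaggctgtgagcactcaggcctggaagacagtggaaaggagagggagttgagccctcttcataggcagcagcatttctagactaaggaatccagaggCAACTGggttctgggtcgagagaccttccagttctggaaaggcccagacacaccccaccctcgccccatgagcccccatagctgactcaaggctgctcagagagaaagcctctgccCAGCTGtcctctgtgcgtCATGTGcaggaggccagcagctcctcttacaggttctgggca
Klhl33, chr14:50897434-50897733, minus strand: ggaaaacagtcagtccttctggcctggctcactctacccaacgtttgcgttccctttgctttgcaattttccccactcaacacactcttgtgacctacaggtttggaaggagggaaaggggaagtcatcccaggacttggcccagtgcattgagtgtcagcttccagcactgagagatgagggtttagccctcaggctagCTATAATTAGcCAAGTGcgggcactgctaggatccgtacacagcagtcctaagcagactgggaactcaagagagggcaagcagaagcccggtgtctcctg
Klhl2, chr8:64849875-64850174, minus strand: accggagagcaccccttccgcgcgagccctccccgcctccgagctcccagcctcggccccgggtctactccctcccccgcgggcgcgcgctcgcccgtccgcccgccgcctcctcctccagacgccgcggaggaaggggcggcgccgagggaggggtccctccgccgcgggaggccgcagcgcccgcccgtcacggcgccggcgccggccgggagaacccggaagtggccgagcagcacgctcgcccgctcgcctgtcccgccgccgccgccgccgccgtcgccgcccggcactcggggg

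The Klhl41 window held 4 E-boxes and 1 MEF2 box, whose first base lay at -63 from the start. The Klhl40 window held 4 E-boxes and no MEF2 box. The Klhl33 window printed held 1 E-box and a MEF2 box, with first bases at -39 and -50. A MEF2 box was present in 3.19% of 32851 RefSeq windows of this length, and an E-box in 72.3%. The E-box with the centre GC (CAGCTG, which is also counted as an E-box) was present in 16.3% of all windows, and among the members in those of Klhl21, Klhl34, Klhl40 and Klhl41, 1 each. The windows of Klhl2 and Klhl31 held neither an E-box nor a MEF2 box. The Klhl31 window, chr9:77636482-77636781, lies mostly inside the gene as placed here, which begins at 77636500, so its upstream bases were hardly searched. The Klhl2 window was 82.7% G and C with 54 CpG pairs, and that of Klhl21 65.3% with 26. The Klhl41 window was 46.3% with 6 CpG pairs, that of Klhl40 57.3% with 4, and the median over all windows was 52.7% with 7. A match here is a description of letters, not a bound site.

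Klhl41 was the most abundant BTB-Kelch gene of this muscle per exon length. Klhl41 (also known as sarcosin; ENSMUSG00000075307, mm10 chromosome 2, 69670120 to 69684230) supports nebulin and takes part in the removal of Nrap, a scaffold of growing myofibrils. Its counts were 2095 and 1481 in IVS replicates 1 and 2 and 2408 and 2766 in IVS_diosmin replicates 1 and 2, which is 119.8 and 120.3 CPM against 186 and 192 CPM. Both diosmin libraries were above both IVS libraries, and the replicates of a group differed by a factor of 1.00 in IVS and 1.03 with diosmin. On the log2 scale the difference was 0.65 ± 0.20 (SE), with an adjusted p = 0.101 by edgeR and 0.0197 by DESeq2. Leaving out any 1 library moved the log2 fold change between 0.61 and 0.68. With scaling to the total count alone it was 0.54 (edgeR adjusted p = 0.298).

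Klhl40, the partner of nebulin and leiomodin 3 (ENSMUSG00000074001, chromosome 9, 121777607 to 121783818), had nearly the same level in every library. It had 521, 380, 376 and 406 counts in the same order of libraries, or 29.8, 30.9, 29.0 and 28.2 CPM. The diosmin values were the lower pair by a narrow margin (log2 difference -0.09 ± 0.20, adjusted p = 0.885). Per exon length, the ratio of Klhl41 to Klhl40 was 3.98 and 3.85 in IVS and 6.33 and 6.74 with diosmin. The ratio was formed after the values of both genes were seen, and it was not tested. Klhl40 shares 540 exon bases with Gm47108 on the opposite strand, which had 6 to 17 counts.

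Klhl31, the Kelch-like gene tied to filamin C (ENSMUSG00000044938, chromosome 9, 77636500 to 77660127), had the highest CPM of the 10 genes. Its counts were 3487 and 2087 in IVS and 3047 and 4594 with diosmin, or 199 and 170 CPM against 235 and 319 CPM. The groups did not overlap, and the diosmin libraries were further apart than the IVS pair. The log2 fold change was 0.59 ± 0.22 (SE, adjusted p = 0.191), and it was 0.33 without IVS_diosmin replicate 2 and 0.79 without IVS_diosmin replicate 1.

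Klhl21, a Cul3 adaptor known from dividing cells, where it acts on Aurora B kinase (ENSMUSG00000073700, chromosome 4, 152008803 to 152017680), was at 16.9 and 16.3 CPM in IVS and 27.2 and 29.6 CPM with diosmin. Its counts were 295, 201, 353 and 427. The groups were separate and the replicates close, within a factor of 1.09 in each group. The difference was 0.78 ± 0.21 in log2 units (adjusted p = 0.0737 by edgeR). Without a filter on low counts the edgeR adjusted p was 0.0416. With replicate number as a block it was 0.168, and with scaling to the total count alone it was 0.23. Leaving out any 1 library gave log2 fold changes from 0.70 to 0.84. Aurkb, the Aurora B gene, had 4 counts in IVS_diosmin replicate 1 and 0 in the other libraries. Klhl21 shares 817 exon bases with Gm9768 on the opposite strand, which had 10 to 31 counts.

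Klhl34 (ENSMUSG00000047485, X chromosome, 157818435 to 157820369), whose role in muscle is little known, was near the lower limit of counting. It had 4 and 2 counts in IVS and 37 and 11 with diosmin, or 0.229 and 0.163 CPM against 2.85 and 0.764 CPM. Both diosmin values were above both IVS values, and they differed from each other by a factor of 3.74. Klhl34 passed the filter on low counts, with its default minimum count of 10, only through the diosmin libraries. Its place above IVS was therefore largely set by that filter. Its log2 fold change was 3.12 ± 0.95 (adjusted p = 0.110), with an adjusted p = 0.0390 without the filter on low counts. Without IVS_diosmin replicate 1 it was 1.90 (adjusted p = 0.636), and without IVS_diosmin replicate 2 it was 3.77. Slow fibre markers summed to 3403 and 1303 CPM in the same diosmin libraries, and their part in the level of Klhl34 was not tested.

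Klhl2, also known as Mayven, is an actin-binding adaptor that carries WNK kinases, regulators of ion transport, to Cul3. It was the gene called (ENSMUSG00000031605, chromosome 8, 64739675 to 64850017), at 69 and 103 counts in IVS and 12 and 22 counts with diosmin. These are 3.95 and 8.37 CPM against 0.925 and 1.53 CPM, so that the groups did not overlap although the IVS pair differed by a factor of 2.12. Diosmin minus IVS was -2.30 ± 0.50 in log2 units (SE, adjusted p = 0.0313). The call was kept without IVS replicate 1 (-2.76, adjusted p = 0.0126). Leaving out IVS replicate 2 ended it (-1.68, adjusted p = 0.343), as did leaving out IVS_diosmin replicate 1 (-1.99, adjusted p = 0.266) or 2 (-2.72, adjusted p = 0.0581). It was also lost with limma and voom (adjusted p = 0.0881). The endothelial markers were also lower with diosmin, at 172 and 161 against 326 and 336 summed CPM, and their part in the level of Klhl2 was not tested. Of the kinases it acts on, Wnk1 was at 118 and 138 CPM in IVS and 109 and 107 CPM with diosmin (adjusted p = 0.610). Wnk4, at a low level, ran the other way. It was at 0.572 and 0.894 CPM in IVS and 1.46 and 1.04 CPM with diosmin (edgeR adjusted p = 0.68).

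Klhl24, an adaptor that controls keratin 14 in skin (ENSMUSG00000062901, chromosome 16, 20097542 to 20129221), was even across the libraries. It was at 58.5 and 54.8 CPM in IVS and 54.4 and 61.9 CPM with diosmin, from 1023, 675, 705 and 892 counts. The groups overlapped, and the log2 fold change of 0.04 ± 0.20 (SE, adjusted p = 0.957) turned to -0.08 when libraries were scaled to their total count alone. It also turned without IVS replicate 2 (-0.01) and without IVS_diosmin replicate 2 (-0.08). Krt14, the keratin 14 gene, had 0 counts in all 4 libraries. Per exon length, the ratio of Klhl21 to Klhl24 was 0.737 and 0.761 in IVS and 1.28 and 1.22 with diosmin. This ratio too was formed after the values of both genes were seen, and it was not tested.

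Klhl33 (ENSMUSG00000090799, chromosome 14, 50888582 to 50897507) and Klhl30 (ENSMUSG00000026308, chromosome 1, 91351016 to 91362416) are expressed in muscle, with roles that are less well described. Klhl33 was at 129 and 96.9 CPM in IVS and 116 and 82.9 CPM with diosmin, from 2250, 1192, 1501 and 1194 counts. Its groups overlapped, and the log2 difference of -0.18 ± 0.23 (adjusted p = 0.767) became 0.03 without IVS replicate 1 and 0.02 without IVS_diosmin replicate 2. Klhl30 was at 38.7 and 67.4 CPM in IVS and 42.2 and 28.1 CPM with diosmin, from 676, 830, 547 and 405 counts. IVS replicate 2 stood highest and IVS_diosmin replicate 2 lowest, and the other libraries were close to each other across the groups. The log2 fold change of Klhl30 was -0.59 ± 0.29 (SE, adjusted p = 0.343). Leaving out IVS replicate 1 gave -0.94 and leaving out IVS_diosmin replicate 1 gave -0.91, while leaving out IVS replicate 2 gave -0.14 and leaving out IVS_diosmin replicate 2 gave -0.34.

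Klhl38 (ENSMUSG00000022357, chromosome 15, 58314573 to 58324169) differed more between the IVS libraries than between the groups. It was at 7.78 and 19.3 CPM in IVS and 19.4 and 12.4 CPM with diosmin, from 136, 237, 251 and 179 counts. The IVS pair differed by a factor of 2.48, the widest of the 10 genes in that group. Diosmin minus IVS came to 0.24 ± 0.42 in log2 units (adjusted p = 0.840). Leaving out IVS replicate 1 gave -0.28, leaving out IVS_diosmin replicate 1 gave -0.11, and leaving out IVS replicate 2 gave 1.02. The 3 Schwann cell markers also differed within IVS, at 30.1 and 172 summed CPM, in the same direction as Klhl38. With diosmin they summed to 48.4 and 86.5 CPM, in the opposite direction to Klhl38. Their part was not tested. Of 2212 exon bases of Klhl38, 1446 lie opposite the antisense gene Gm15943, which had 117, 172, 178 and 101 counts. Without a stated strand setting the reads of these neighbours cannot be told apart, so the level of Klhl38 is uncertain.

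**Figure D2:**
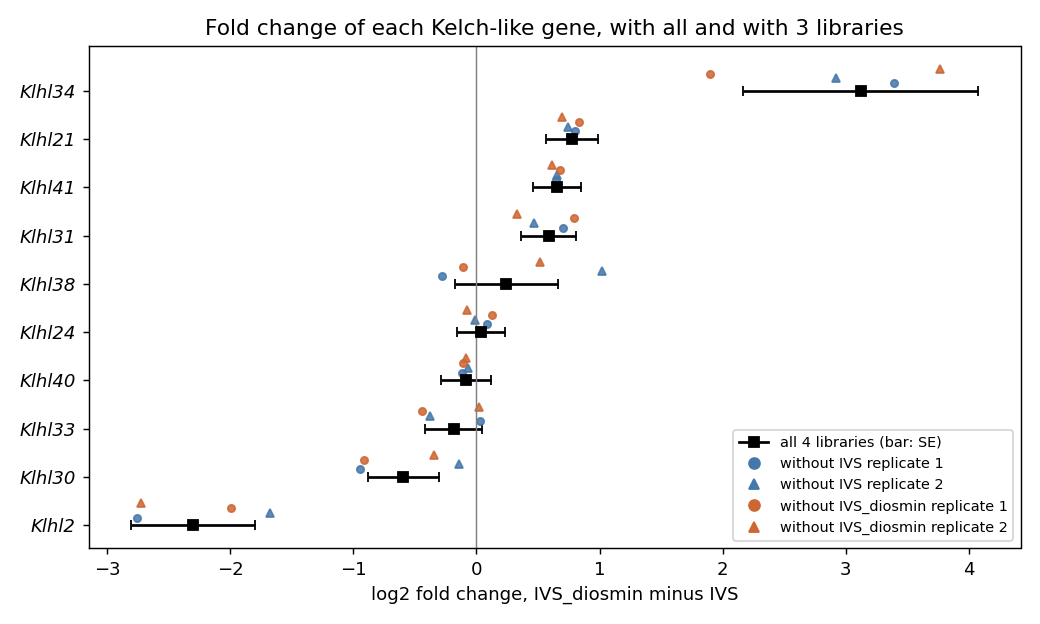
Log2 fold change of each Kelch-like gene, IVS_diosmin minus IVS, with all 4 libraries (squares, bars 1 SE) and with each library left out (coloured points). The points of Klhl41 stay between 0.61 and 0.68, while those of Klhl38 run from -0.28 to 1.02 and those of Klhl34 from 1.90 to 3.77.

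Spread between replicates lay near the trend over genes of the same level for most members. The biological coefficient of variation is the spread between replicates beyond counting noise, as edgeR estimates it for a gene. It was 0.1598 for Klhl41, 0.161 for Klhl24, 0.162 for Klhl40 and 0.165 for Klhl21. Their trends, in the same order, were 0.175, 0.174, 0.178 and 0.181. Klhl31 was at 0.175 and Klhl33 at 0.182, with trends of 0.176 and 0.175. The coefficient was 0.294 for Klhl38 and 0.217 for Klhl30, where the trend over genes of the same level was 0.193 and 0.176. The rarest genes had the highest values, 0.316 for Klhl2 and 0.499 for Klhl34, near their trend of 0.290 and 0.457.

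Levels between genes were compared as CPM per kb of exon, averaged over the 4 libraries. Klhl41 stood at 61.1 ± 15.7 (SD, n = 4) and Klhl31 at 35.5 ± 9.9, above 97.2% and 95.5% of tested genes. Klhl33 followed at 16.8 ± 3.2, Klhl30 at 14.3 ± 5.4 and Klhl40 at 11.8 ± 0.5. Klhl38 had 6.65 ± 2.55, Klhl21 5.65 ± 1.73 and Klhl24 5.64 ± 0.35. Klhl34 had 0.518 ± 0.653 and Klhl2 0.399 ± 0.366 CPM per kb, above 16.8% and 12.3% of tested genes. The range over libraries did not overlap between Klhl31 and Klhl33, between Klhl40 and Klhl38, or between Klhl24 and Klhl34. The other 6 pairs of neighbours in this order overlapped.

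The 10 genes held most of the BTB-Kelch RNA of this muscle. Among 49 BTB-Kelch genes in the files, they took 65.6% and 66.7% of the counts in IVS and 70.6% and 69.6% with diosmin. Per exon length Klhl41 alone took 23.1% and 23.2% in IVS and 30.7% and 30.5% with diosmin. The most abundant BTB-Kelch genes outside the 10 were Ivns1abp, an actin-binding protein of the nucleus and cytoplasm, at 74.1 and 79.5 CPM in IVS and 78.9 and 92.4 CPM with diosmin, and Keap1. Keap1, the sensor that holds the antioxidant factor Nfe2l2, was at 29.5 and 34.9 CPM in IVS and 35.5 and 46.6 CPM with diosmin (log2 0.35 ± 0.22, adjusted p = 0.463).

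**Figure D3:**
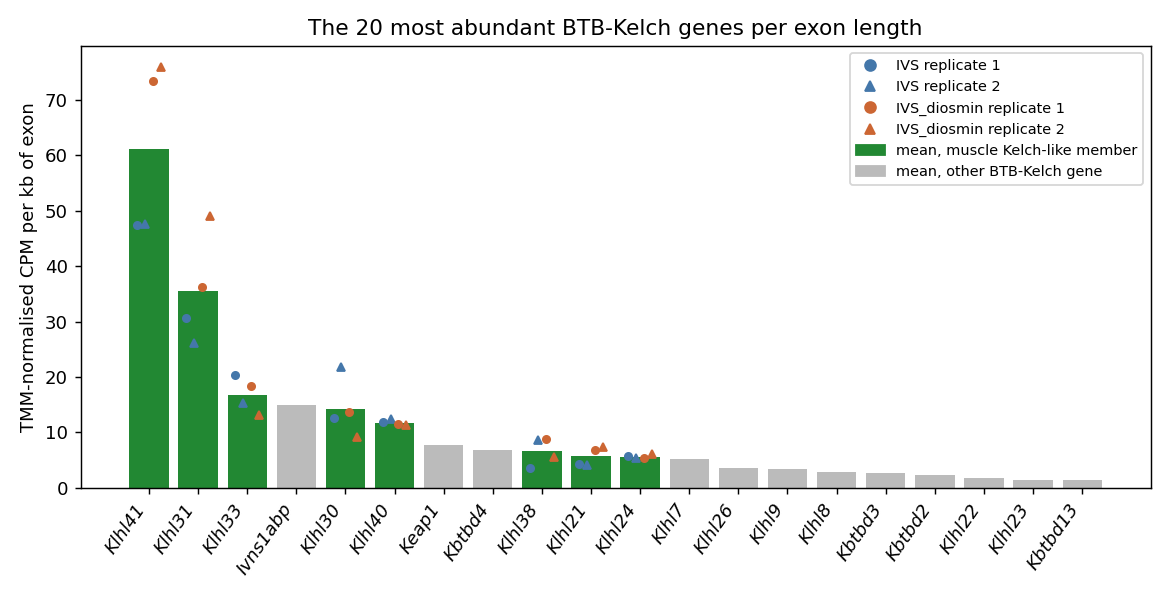
Mean level of the 20 most abundant BTB-Kelch genes in CPM per kb of exon (bars over 4 libraries), with the value of each library as points for the 10 genes described here (green). Klhl41 and Klhl31 have the highest bars, at 61.1 and 35.5 CPM per kb, and Klhl2 and Klhl34 lie below the range shown.

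Calls among the other BTB-Kelch genes stood at 0 of 33 tested, beside 2.96% of all tested genes, a share that gives about 1 gene in a list of this size. Of 40 such genes on the list, 39 were in the files and 33 were tested, with 14 positive and 19 negative log2 fold changes, a median of -0.11 (0.01 over all tested genes), and 0 past the threshold by edgeR, by DESeq2 or by limma with voom. Only Kbtbd2, which helps set insulin signalling, had an unadjusted p under 0.05 (1 of 33, beside 16.8% of all tested genes), and it was at 13.7 and 11.9 CPM in IVS and 7.63 and 5.21 CPM with diosmin. Kbtbd13, a Kelch gene mutated in a form of nemaline myopathy with slow movement, was at 3.03 and 3.09 CPM in IVS and 4.09 and 5.76 CPM with diosmin (adjusted p = 0.422). Klhl1, Klhl14 and Klhl35 had 0 counts in every library.

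Among genes of the ligase that these adaptors serve, 0 of 25 were called, a count near the 2.96% of all tested genes. Of 25 genes of the Cul3 core, of neddylation (the attachment of Nedd8 that switches cullins on) and of the COP9 complex that reverses it, all were tested and 0 passed by edgeR, by DESeq2 or by limma with voom. The log2 fold changes were positive for 19 and negative for 6, with a median of 0.20. Over all tested genes 6834 were positive and 6699 negative, with a median of 0.01. An unadjusted p under 0.05 was found for 3 of the 25 genes, beside 16.8% of all tested genes. Cul3 was at 82.8 and 78.3 CPM in IVS and 96.7 and 150.4 CPM with diosmin (log2 0.62 ± 0.23, adjusted p = 0.192). IVS_diosmin replicate 2 stood highest for Cul3, as it did for Klhl21, Klhl24, Klhl31, Klhl41 and Neb. The log2 fold change of Cul3 was 0.25 without that library and 0.90 without IVS_diosmin replicate 1. Rbx1 was at 41.9 and 41.6 CPM in IVS and 41.6 and 36.1 CPM with diosmin. Ube2m, the enzyme that hands Nedd8 to the ligase, was at 68.6 and 79.8 CPM against 76.1 and 86.2 CPM.

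Of 12 reported partners and substrates of Kelch-like proteins, 10 were tested and 2 rose, beside 1.17% of all tested genes called higher. By edgeR, an unadjusted p under 0.05 was found for 4 of the 10 tested, beside 16.8% of all tested genes. The list's median log2 fold change was 0.59, and values ran from -0.24 for Wnk1 to 2.44 for Lmod2, leiomodin 2. Lmod2 was not called (edgeR adjusted p = 0.11), at 6.58 and 12.1 CPM in IVS and 73.2 and 27.5 CPM with diosmin. Nrap, the myofibril scaffold that Klhl41 helps remove, went from 302 and 266 CPM to 534 and 486 CPM (log2 0.84 ± 0.20, adjusted p = 0.0450). Des, the intermediate filament desmin, went from 1611 and 1690 CPM to 3141 and 2945 CPM (log2 0.88 ± 0.20, adjusted p = 0.0365). For both genes the diosmin libraries lay well above the IVS pair, but each call was lost whichever of the 4 libraries was dropped, with an adjusted p of 0.105 to 0.249 for Des and of 0.104 to 0.337 for Nrap. With scaling to the total count alone the adjusted p was 0.0520 for Des and 0.127 for Nrap. Nrap shares 268 exon bases with Habp2 on the opposite strand, which had 1196 to 1759 counts, so part of its count is uncertain.

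Neb, the giant thin filament ruler nebulin, was at 1669 and 1278 CPM in IVS and 2289 and 2473 CPM with diosmin (log2 0.69 ± 0.21, adjusted p = 0.113 by edgeR and 0.0166 by DESeq2). Per exon length the ratio of Klhl41 to Neb was 0.754 and 0.990 in IVS and 0.853 and 0.816 with diosmin. The ratio of Klhl40 to Neb was 0.190 and 0.257 in IVS and 0.135 and 0.121 with diosmin. Neither ratio was tested. Lmod3, leiomodin 3, was at 31.6 and 25.5 CPM against 32.6 and 37.6 CPM (adjusted p = 0.544). Flnc, filamin C, was at 175 and 361 CPM against 436 and 315 CPM (adjusted p = 0.520), and its groups overlapped.

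Among 11 nemaline myopathy genes outside the 10, of which Neb, Lmod3 and Kbtbd13 are also counted above, 2 rose and 0 fell, beside 1.17% of all tested genes called higher and 1.78% called lower. The median log2 fold change of the list was 0.67. Those that rose were Tnnt1, slow troponin T, from 6.80 and 8.69 CPM to 551 and 274 CPM (log2 5.74 ± 0.38, adjusted p = 0.000408), and Tpm3, the slow tropomyosin, from 33.6 and 47.7 to 303 and 150.1 CPM (log2 2.48 ± 0.34, adjusted p = 0.00859). Both are slow fibre genes, and both passed in each fit that left out 1 library. Unadjusted p was under 0.05 by edgeR for 7 of the 11 genes, beside 16.8% of all tested genes. The most abundant genes of the list did not pass the adjusted threshold. Acta1, skeletal actin, was at 11102 and 14259 CPM against 18228 and 19763 CPM (adjusted p = 0.184), and Tnnt3, fast troponin T, was at 14708 and 17320 CPM against 13027 and 15129 CPM (adjusted p = 0.736).

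**Figure D4:**
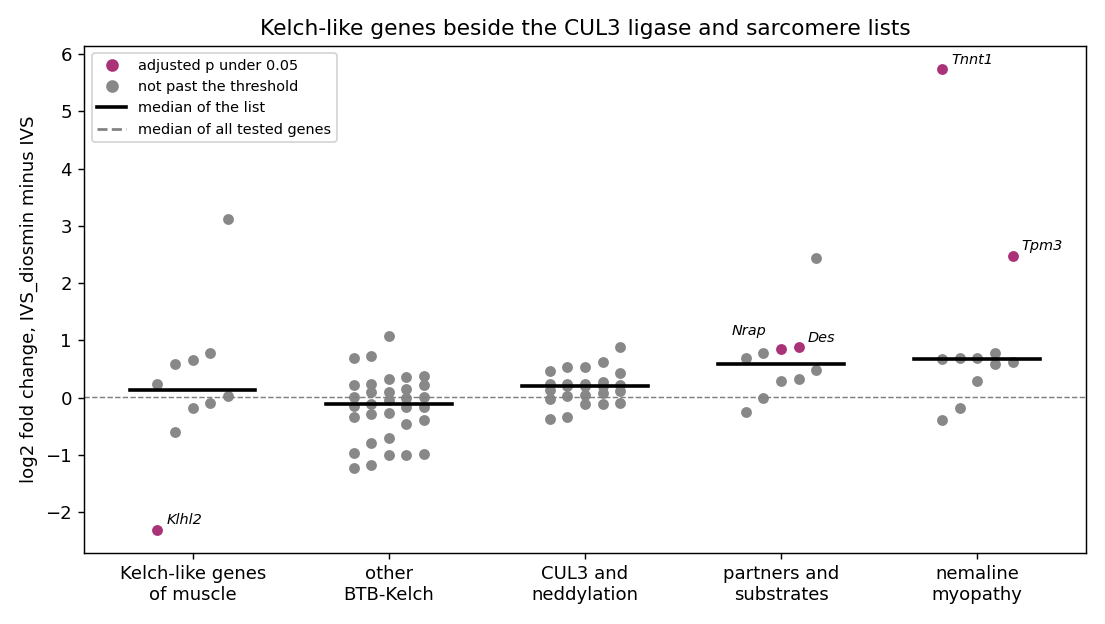
Log2 fold change of each tested gene, IVS_diosmin minus IVS, for the 10 Kelch-like genes and 4 related lists, with list medians as black bars and the median of all tested genes as a dashed line. Called genes are Klhl2 below and Nrap, Des, Tpm3 and Tnnt1 above the dashed line, and medians run from -0.11 for other BTB-Kelch genes to 0.67 for nemaline myopathy genes.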

How the data were processed

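The deposited values were raw read counts per gene, 1 file per library for 4 libraries in 2 groups of 2. HISAT2 2.1.0, HTSeq and the mm10 genome are named per the submitters' processing notes; the annotation release and counting settings are not given in the sources used here, nor is a strand setting. All 5 HTSeq summary lines were left out of library sizes and tests. Gene counts were 27.5% and 27.7% of the reads in a file in IVS and 24.9% and 26.3% with diosmin. Reads whose alignment was not unique were 37.7% and 38.8% in IVS and 45.6% and 43.6% with diosmin. The part of this difference in the results was not tested. Symbols, positions and exon lengths were read from GENCODE M21, which is on that build (55141 of 55401 identifiers matched without version). Promoter windows came from RefSeq, and proteins were not used here.

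Counts were filtered with filterByExpr (13533 genes left), scaled by TMM and tested as IVS_diosmin minus IVS with edgeR 4.0.16 in R 4.3.3 by a robust quasi-likelihood fit over all genes, 2-sided; Benjamini-Hochberg adjusted p under 0.05 made a call. The script was tested on simulated data. The standard error is the size of the log2 fold change divided by the square root of F. Exact permutation of 2 libraries against 2 gives p = 0.333 at best. DESeq2 1.42.0, limma 3.58.1 with voom, other scalings and filters, a replicate block and leaving out each library were alternatives. The chi-square per degree of freedom was 28.6 between the IVS and 19.7 between the IVS_diosmin libraries, more than counting noise alone gives. This check cannot tell separate animals from separate preparations of the same animal.

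The members and lists were chosen with earlier results of these data known. All 10 members are named. From each of 4 other lists, called genes (up to 6 by p), the 2 of highest mean CPM and 8 fixed genes are named. Kbtbd2, Wnk1, Wnk4, Lmod2, Aurkb, Krt14, Klhl1, Klhl14 and Klhl35 were named after their values were seen.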

Additional observations from a re-analysis of the deposited data

How the results depend on the processing

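The replicate numbers are shared by the groups, but the labels do not tie them to animals, and the difference of replicate 1 minus 2 correlated by 0.0115 between the groups over tested genes. With the replicate block 93 genes were called, with 0 of the Kelch-like members, 0 partners and 1 nemaline myopathy gene, and Klhl2 missed the threshold (log2 -2.28). DESeq2 called 606 genes, 2 members (Klhl2 and Klhl41, log2 0.65 for the latter), 4 partners and 5 nemaline myopathy genes. Without a filter on low counts 919 genes were called, with 3 members (Klhl2, Klhl21 at 0.77 and Klhl34 at 3.11), 1 other BTB-Kelch gene, 4 partners and 4 nemaline myopathy genes. Limma with voom called 0 members (Klhl2 at log2 -2.14). Scaling to the total count alone called 1 partner, shifted the median of all tested genes to -0.11, turned Klhl24 to -0.0802, and gave 25.4% of calls as higher against 39.8% with TMM.

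Leaving out 1 library gave 38 to 366 called genes (38 without IVS_diosmin replicate 1, 98 without IVS replicate 2 and 266 without IVS_diosmin replicate 2), 0 to 1 members, 0 to 1 partners and 2 nemaline myopathy genes. Klhl2 ran from -2.76 to -1.68, Klhl24 from -0.0766 to 0.13, Klhl33 from -0.44 to 0.0328 and Klhl38 from -0.28 to 1.02. Higher calls made up 71.1% when IVS_diosmin replicate 1 was dropped, 52.6% when its replicate 2 was dropped, and 29.8% when IVS replicate 1 was dropped. The cause of these differences was not tested. RLE and upper-quartile scaling, the stricter filter (a minimum count of 50, which removed Klhl34) and a fit without rRNA genes and Rn7sk, added after the data were seen, each kept 1 member called. Of 128 alternative fits of single members, 113 kept direction and side of the threshold. Most of the 128 were fits of the 9 members that were not called, which had no call to lose. The 1 call, of Klhl2, was lost with limma and voom and with the replicate block, beside the losses given above when single libraries were left out. Low counts limit Klhl2 and Klhl34 most.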

Other observations

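Ratios within a library do not depend on library size. Per exon length, Klhl41 over Nrap was 0.863 and 0.985 in IVS and 0.756 and 0.860 with diosmin. Klhl31 over Flnc was 1.65 and 0.681 in IVS and 0.780 and 1.47 with diosmin, and Klhl40 over Lmod3 was 0.834 and 1.07 against 0.787 and 0.663. These ratios were formed after the values of the single genes were known, and none was tested.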
